A study of Danio rerio with 6 samples.

Results

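The T-box family was followed through 10 of its genes across the 3 reporter populations of this zebrafish series. They were taken by name from the deposited expression table (tbx1, tbx2a, tbx2b, tbx3a, tbx5a, tbx15, tbx18, tbx20, tbr1b and eomesa), which makes 10 of 29126 named entries, and all 10 passed the filter on low values. The 6 libraries hold RNA of High-Fli1+, Low-Fli1+ and Fli1- cells, with 2 libraries each, and all carry the transgene Tg(fli1:EGFP), which places EGFP under the control of the fli1 promoter and labels vessels, some blood cells and pharyngeal arch tissue. The populations are therefore defined by reporter level and each can hold several cell types. The labels give no age and no method of separation, and they do not say whether replicates came from separate embryos, so p-values measure the spread between these libraries.

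T-box genes encode transcription factors that bind DNA through a shared domain, the T-box, and switch target genes on or off. They act in small subfamilies during embryonic patterning. The Tbx1 subfamily (tbx1, tbx15, tbx18 and tbx20 here) is known for pharyngeal, skeletal and heart development, the Tbx2 subfamily (tbx2a, tbx2b, tbx3a and tbx5a) for heart, fin or limb and eye, and the Tbr1 subfamily (tbr1b and eomesa) for forebrain neurons and, for eomesa, the early embryo.

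The values are FPKM, fragments scaled to transcript length and library size, so levels can be compared between genes, but the depth behind them is unknown. FPKM summed to between 430723 and 712585 per library. Entries listed at 0 numbered 11054 and 11457 in High-Fli1+, 14082 and 12575 in Low-Fli1+, against 8683 and 8451 in Fli1- libraries. Replicates correlated across genes with Pearson's r of 0.892 in High-Fli1+, 0.737 in Low-Fli1+ and 0.927 in Fli1-, so the Low-Fli1+ libraries resembled each other least. Low-Fli1+ replicate 2 had a higher r with Fli1- replicate 2 (0.752) and with the High-Fli1+ libraries (0.747 and 0.748). The Low-Fli1+ pair was therefore no more alike than some libraries of different populations. The reporter's own gene fli1a followed the labels, with 241 and 192 FPKM in High-Fli1+, 66.8 and 52.0 in Low-Fli1+, against 1.04 and 5.55 in Fli1- libraries. Between the positive populations fli1a was not called (limma, adjusted p = 0.113). The related gene fli1b did not separate them, with 7.56 and 8.95 FPKM in High-Fli1+, 21.4 and 8.25 in Low-Fli1+, against 0 and 0.245 in Fli1- libraries. The summed level of 10 endothelial markers was 120 and 131 FPKM in High-Fli1+ libraries, 15.2 and 19.5 in Low-Fli1+, against 7.32 and 4.24 in Fli1- libraries. That of 6 cartilage markers was 12385 and 10218 FPKM in High-Fli1+, 1171 and 1187 in Low-Fli1+, against 129 and 175 in Fli1- libraries. Red cell markers, 5 in number, summed to 63.8 and 44.1 FPKM in High-Fli1+, 2973 and 4569 in Low-Fli1+, against 37959 and 29295 in Fli1- libraries.

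The make-up of the 10 genes differed between reporter-positive and reporter-negative cells. The shares leave out the 12 further family entries, so they are not those of the family or of whole subfamilies. The 4 genes of the Tbx1 subfamily together held 40.7% and 38.7% of the summed FPKM of the 10 genes in High-Fli1+ and 40.2% and 42.6% in Low-Fli1+ libraries, against 13.0% and 12.6% in Fli1- libraries. The Tbr1 pair held 2.22% and 0.669% in High-Fli1+ and 4.84% and 2.41% in Low-Fli1+ libraries, against 24.6% and 23.4% in Fli1-. The summed share of the Tbx2 subfamily lay close together in all libraries, at 57.1% and 60.6% in High-Fli1+, 55.0% and 55.0% in Low-Fli1+, against 62.4% and 64.0% in Fli1-. Its parts shifted. Tbx5a held 22.5% and 27.5% in High-Fli1+, 8.80% and 31.3% in Low-Fli1+, against 2.33% and 9.1% in Fli1-. Tbx2b held 17.3% and 19.3% in High-Fli1+, 33.5% and 11.3% in Low-Fli1+, against 34.5% and 27.1% in Fli1-. The 10 genes summed to 133 and 109 FPKM in High-Fli1+, 129 and 141 in Low-Fli1+, against 71.6 and 76.7 in Fli1- libraries, so both positive populations lay above the negative one.

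**Figure D1:**
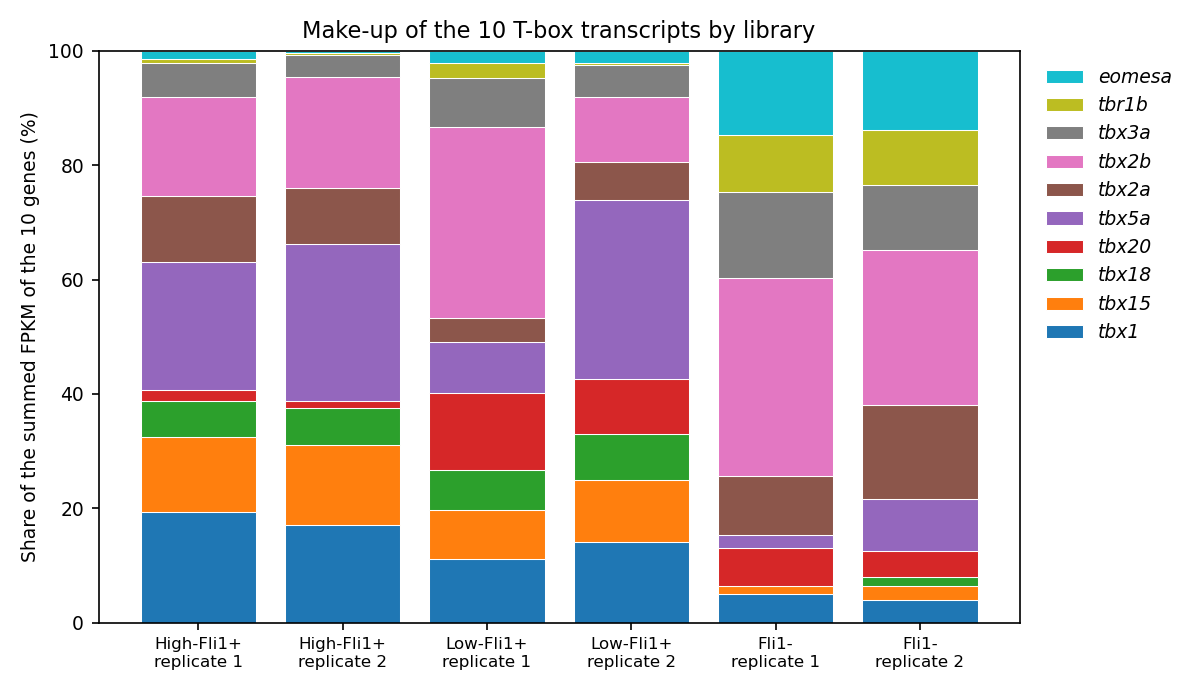
Share (%) of each T-box gene in the summed FPKM of the 10 genes, one stacked bar per library, High-Fli1+ on the left, then Low-Fli1+, then Fli1-. The Tbr1 pair at the top of the bars makes up 24.6% and 23.4% in Fli1- libraries and at most 4.84% in the others.

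Tbx1, a regulator of pharyngeal arch and outflow tract development whose loss underlies much of human DiGeorge syndrome, was higher in both reporter-positive populations than in Fli1- cells. It stood at 25.8 and 18.7 FPKM in High-Fli1+, 14.4 and 19.9 in Low-Fli1+, against 3.58 and 3.08 in Fli1- libraries. Both positive populations lay wholly above Fli1-, and they overlapped each other. In limma, fitted on log2(FPKM + 1) over all 19237 genes that passed the filter and all 6 libraries, the log2 fold change was 2.41 ± 0.36 (SE) for High-Fli1+ against Fli1- (adjusted p = 0.0108), or 5.32-fold on that scale. It was 2.05 ± 0.36 (SE) in Low-Fli1+ against Fli1- (limma, adjusted p = 0.0473). The log2 fold change between the positive populations was 0.36, with a 95% interval from -0.52 to 1.24 (adjusted p = 0.581). In bulk RNA, fewer cells of a type and less RNA per cell cannot be told apart.

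Tbx15, which in the mouse shapes craniofacial and limb skeleton from mesenchyme, had the same order. It stood at 17.6 and 15.2 FPKM in High-Fli1+, 11.1 and 15.4 in Low-Fli1+, against 1.003 and 1.88 in Fli1- libraries, with every positive library at least 11.1 and every negative one at most 1.88. The log2 fold change was 2.85 ± 0.42 (SE) in High-Fli1+ against Fli1- (limma, adjusted p = 0.0103), the largest in size of the 10 genes there, and 2.55 ± 0.42 (SE) in Low-Fli1+ against Fli1- (limma, adjusted p = 0.0407). Between the positive populations it was 0.30, with an interval from -0.72 to 1.33. The summed level of 8 arch mesenchyme markers was highest in High-Fli1+ and lowest in Fli1-, at 566 and 516 FPKM in High-Fli1+, 148 and 225 in Low-Fli1+, against 39.8 and 37.9 in Fli1- libraries. In Low-Fli1+ against Fli1- limma called 4 of the 8 higher and 0 lower, beside 2.14% and 1.1% of all genes. Dlx2a, dlx5a and barx1 had log2 fold changes of -1.80, -1.65 and -0.73 there and were listed at 0 in Low-Fli1+ replicate 1. The part of the markers in the tbx1 and tbx15 results was not tested.

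Tbx18, in the mouse a factor of epicardium, sinus node and mural cells, rose in High-Fli1+ relative to Fli1- cells. Its levels were 8.39 and 6.94 FPKM in High-Fli1+ and 9.08 and 11.3 in Low-Fli1+ libraries, against 0 and 1.18 in Fli1- libraries, so Low-Fli1+ lay above High-Fli1+ and both above Fli1-. The rise in High-Fli1+ over Fli1- passed the test, the log2 fold change being 2.55 ± 0.56 (SE) (limma, adjusted p = 0.0318). The log2 fold change in Low-Fli1+ against Fli1-, 2.91 ± 0.56 (SE), was larger yet did not pass (limma, adjusted p = 0.0561). It passed under quantile normalization (limma, adjusted p = 0.0297) and with only genes of a mean of at least 2 FPKM tested (0.0488). Between the positive populations it was -0.36 (adjusted p = 0.734), and 0.035 under quantile normalization. Of 6 mural cell markers tested in High-Fli1+ against Fli1-, limma called 1 higher and 1 lower, beside 5.79% and 11.5% of all genes. The median log2 fold change of the 6 was -0.53. Cspg4, a proteoglycan of pericytes and other mesenchyme, was the higher one, at 126.5 and 100.6 FPKM in High-Fli1+, 53.1 and 66.4 in Low-Fli1+, against 2.82 and 4.09 in Fli1- libraries. It made up most of the summed level of the 6 markers in High-Fli1+ (166 and 146 FPKM) and Low-Fli1+ libraries (104 and 113). In Fli1- libraries, where that sum was 45.5 and 81.0 FPKM, it was a small part. The smooth muscle gene tagln was listed at 0 in all 4 positive libraries and stood at 3.88 and 8.03 FPKM in Fli1-. The 4 epicardial markers summed to 55.2 and 64.9 FPKM in High-Fli1+, 48.1 and 25.2 in Low-Fli1+, against 19.9 and 19.0 in Fli1- libraries. Most of that was aldh1a2, a retinoic acid synthesis gene also expressed outside the heart (53.1 and 62.6 in High-Fli1+, 45.3 and 22.6 in Low-Fli1+, against 14.5 and 13.7 in Fli1- libraries), and the median log2 fold change of the 3 tested in High-Fli1+ against Fli1- was -0.66. Their part in the tbx18 level was not tested.

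Tbx20, needed for heart chamber growth and also expressed in cranial motor neurons, had its highest level in Low-Fli1+ cells. It stood at 2.44 and 1.38 FPKM in High-Fli1+, 17.4 and 13.6 in Low-Fli1+, against 4.71 and 3.53 in Fli1- libraries, and none of the 3 populations overlapped. High-Fli1+ was lower than Low-Fli1+ by limma, with a log2 fold change of -2.52 ± 0.46 (SE) and an adjusted p of 0.0419. Low-Fli1+ against Fli1- gave 1.69 ± 0.46 (SE), which did not pass (limma, adjusted p = 0.113), and High-Fli1+ against Fli1- gave -0.83 (adjusted p = 0.287). The summed level of 7 heart muscle markers was 4.57 and 0.371 FPKM in High-Fli1+, 8.94 and 1.497 in Low-Fli1+, against 0.260 and 1.34 in Fli1- libraries, with tnnt2a, the cardiac troponin T gene, listed at 0 in all 6. Of the 7, 4 and 5 were at 0 in High-Fli1+, 4 and 5 in Low-Fli1+, against 5 and 3 in Fli1- libraries. In Low-Fli1+ replicate 1 the atrial peptide gene nppa made up 5.82 FPKM of that sum, and in replicate 2 it was listed at 0. Vmhc, also of the 7, stood at 0 and 0.194 FPKM in High-Fli1+, 1.85 and 1.26 in Low-Fli1+, against 0.0543 and 0.281 in Fli1- libraries. Low-Fli1+ lay above both other populations for vmhc without overlap, with no call in any comparison. Isl1, a LIM factor of motor neurons and heart progenitors, stood at 3.56 and 1.80 FPKM in High-Fli1+, 62.4 and 41.9 in Low-Fli1+, against 50.3 and 44.8 in Fli1- libraries. White cell markers were also highest in Low-Fli1+, with 6 of them summing to 109 and 140 FPKM in High-Fli1+, 447 and 622 in Low-Fli1+, against 12.5 and 12.9 in Fli1- libraries. The part of these cells in the tbx20 level was not tested.

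Tbx5a, which starts pectoral fin outgrowth and patterns the heart, reached the highest level of the 10 genes in High-Fli1+ cells. It stood at 29.9 and 30.01 FPKM in High-Fli1+, 11.4 and 44.1 in Low-Fli1+, against 1.67 and 6.98 in Fli1- libraries. The negative libraries lay below all others, but the Low-Fli1+ pair differed more from each other than from High-Fli1+. Against Fli1- the High-Fli1+ log2 fold change, 2.75 ± 0.77 (SE), did not pass (limma, adjusted p = 0.0613), nor did 2.36 ± 0.77 (SE) in Low-Fli1+ against Fli1- (limma, adjusted p = 0.156). In High-Fli1+ against Fli1- it passed at 3.24 under quantile normalization (adjusted p = 0.0483), with the 2 populations fitted alone (0.0401), and without Low-Fli1+ replicate 1 (0.0403) or replicate 2 (0.0414). Between the positive populations it was 0.39, with a 95% interval from -1.49 to 2.27, and -0.54 without Low-Fli1+ replicate 1.

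**Figure D2:**
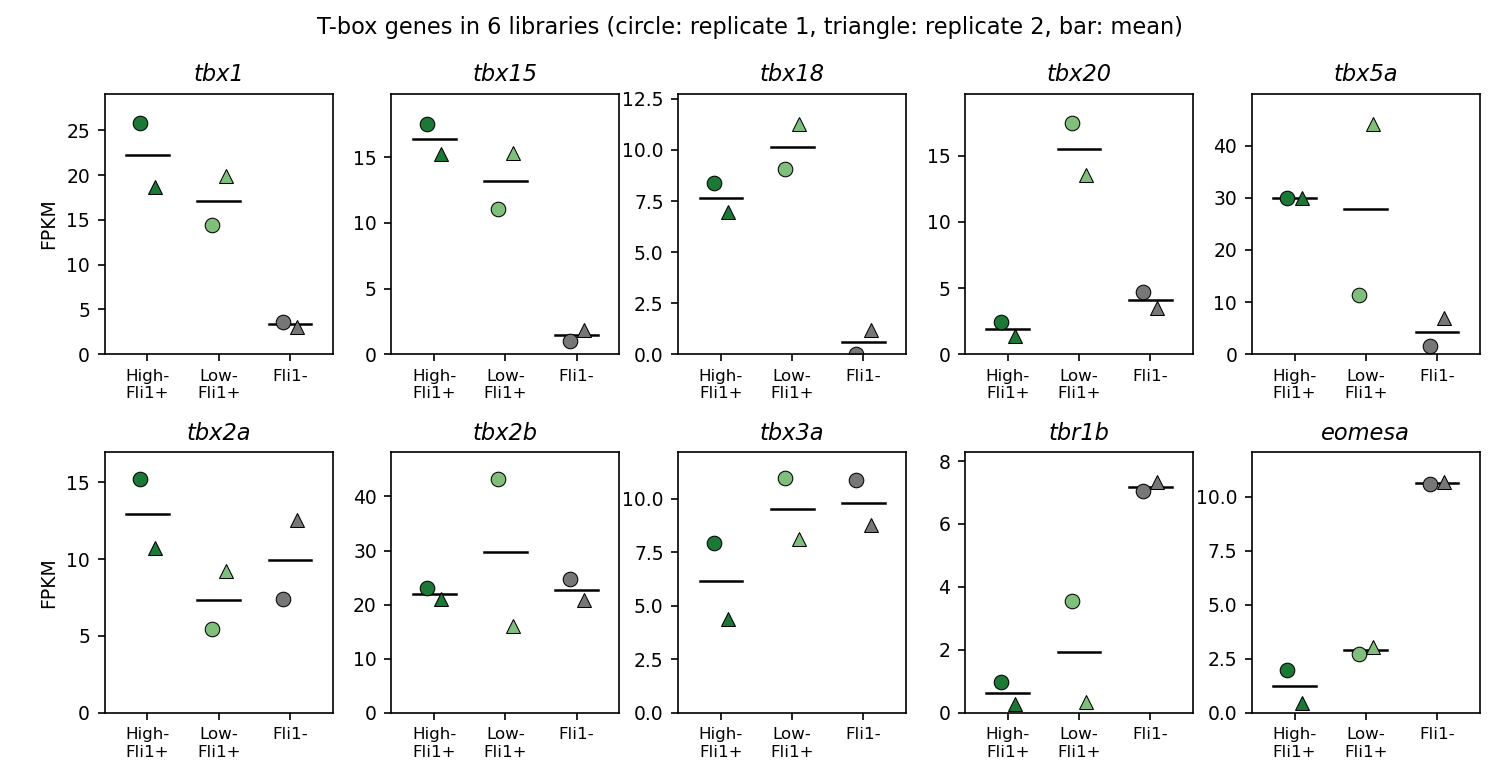
FPKM of each T-box gene in High-Fli1+, Low-Fli1+ and Fli1- libraries (circles replicate 1, triangles replicate 2, bars the mean of both), each panel with its own axis from 0. Tbx1, tbx15, tbx18 and tbx5a lie above Fli1- in all 4 positive libraries, tbx20 is highest in Low-Fli1+, and tbr1b and eomesa are highest in Fli1-.

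The Tbx2 subfamily genes tbx2b, tbx2a and tbx3a, which encode mainly repressors, gave no call in any comparison. Tbx2b, needed for dorsal retina and ultraviolet cone identity, stood at 23.0 and 21.0 FPKM in High-Fli1+, 43.3 and 16.0 in Low-Fli1+, against 24.7 and 20.8 in Fli1- libraries. It was the most abundant of the 10 in Fli1-, and the Low-Fli1+ pair bracketed all other libraries. Its log2 fold change in High-Fli1+ against Fli1- was -0.042 (interval from -1.21 to 1.12), with the opposite sign under quantile normalization (0.20) and median-ratio scaling (0.26). Its paralog tbx2a stood at 15.2 and 10.7 FPKM in High-Fli1+, 5.48 and 9.26 in Low-Fli1+, against 7.40 and 12.6 in Fli1- libraries. High-Fli1+ lay above Low-Fli1+ without overlap, with a log2 fold change of 0.76 (interval from -0.35 to 1.86), and overlapped Fli1- at 0.37 (interval from -0.74 to 1.47). Tbx3a, related to a regulator of the mouse conduction system, stood at 7.92 and 4.36 FPKM in High-Fli1+, 10.9 and 8.11 in Low-Fli1+, against 10.9 and 8.75 in Fli1- libraries. High-Fli1+ was below both others, with log2 fold changes of -0.59 against Low-Fli1+ (interval from -1.65 to 0.47) and -0.64 against Fli1- (interval from -1.70 to 0.42). These intervals hold changes of over 2-fold, so they do not show equal levels.

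The forebrain pair stood highest in Fli1- cells. Eomesa, which acts in mesendoderm of the early embryo and later in forebrain neurons, stood at 1.99 and 0.454 FPKM in High-Fli1+, 2.72 and 3.06 in Low-Fli1+, against 10.6 and 10.7 in Fli1- libraries, with no overlap between any of the populations. In High-Fli1+ it fell relative to Fli1-, the log2 fold change being -2.48 ± 0.55 (SE) (limma, adjusted p = 0.0325). Low-Fli1+ against Fli1- gave -1.58 ± 0.55 (SE), which did not pass (limma, adjusted p = 0.178). Tbr1b, a marker of excitatory forebrain neurons, stood at 0.964 and 0.276 FPKM in High-Fli1+, 3.54 and 0.346 in Low-Fli1+, against 7.04 and 7.32 in Fli1- libraries. All 4 positive libraries were below Fli1-, but the High-Fli1+ log2 fold change against Fli1-, -2.37 ± 0.72 (SE), did not pass (limma, adjusted p = 0.0765). It passed without Low-Fli1+ replicate 1 (limma, adjusted p = 0.0225) or replicate 2 (0.0235), with the populations fitted alone (0.0243) and with a pseudocount of 5 (0.0493). Low-Fli1+ against Fli1- gave -1.73 (adjusted p = 0.251), and the positive populations differed by -0.64, or 0.23 without Low-Fli1+ replicate 1. The summed level of 8 neuronal markers was also highest in Fli1-, at 99.0 and 37.7 FPKM in High-Fli1+, 974 and 636 in Low-Fli1+, against 1748 and 1505 in Fli1- libraries. This sum did not overlap between the positive populations, and neither did eomesa, while tbr1b did. Between these populations 46.7% of all genes did not overlap, so a shared lack of overlap does not tie eomesa to these markers. None of the 8 was listed at 0 in any library, and their part in the result was not tested.

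Counted over the 10 chosen genes, limma called 3 higher (tbx1, tbx15 and tbx18) and 1 lower (eomesa) in High-Fli1+ relative to Fli1- cells. Of the 9 further family entries tested, described below, it called 0 higher and 2 lower there, with a median log2 fold change of -0.74. The 10 genes therefore do not stand for the whole family. Over all genes tested 17.2% were called, 5.79% higher and 11.5% lower. Libraries did not overlap for 8 of the 10 genes, 4 higher and 4 lower, beside 65.8% of all genes, 21.6% higher and 44.2% lower. The median log2 fold change of the 10 was 0.16, against -0.35 over all genes, and relative to that of all genes the 3 higher genes stood at 2.76, 3.20 and 2.90. Under quantile normalization the median of all genes was 0.014 and 49.2% of all calls were higher, beside 33.6% as reported here. In the fit reported here, 4 of the 10 were higher and 2 lower at an unadjusted p under 0.05, beside 1900 and 4251 of the 19237 genes tested. With any 1 library left out, the log2 fold change ran from 2.19 to 2.63 for tbx1 and 2.59 to 3.11 for tbx15. It ran from 1.98 to 3.11 for tbx18 and from -3.00 to -1.96 for eomesa. With any 1 of the 2 Fli1- or 2 High-Fli1+ libraries left out, the calls of these 4 genes were lost. Over all genes those fits called 4.35% and 4.97% (Fli1- libraries left out) and 2.85% and 1.04% (High-Fli1+ libraries left out).

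In Low-Fli1+ against Fli1- cells limma called 2 of the 10 higher (tbx1 and tbx15) and 0 lower, with 5 higher and 1 lower at an unadjusted p under 0.05. Over all genes 3.23% were called, 2.14% higher and 1.1% lower. Libraries did not overlap for 7 of the 10, 5 higher and 2 lower, beside 49.4% of all genes (18.9% higher and 30.5% lower), and the median log2 fold change was 0.95, against -0.21 over all genes. With any 1 of the 6 libraries left out, the 2 calls were lost. The log2 fold change then ran from 1.83 to 2.27 for tbx1 and from 2.29 to 2.81 for tbx15. With the 2 populations fitted alone limma called 0 of the 10, with 4 higher and 1 lower at an unadjusted p under 0.05. Both comparisons against Fli1- share the same Fli1- libraries.

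In High-Fli1+ against Low-Fli1+ cells limma called 0 of the 10 higher and 1 lower (tbx20), and the same counts passed at an unadjusted p under 0.05. Over all genes 5.37% were called, 1.22% higher and 4.15% lower. Libraries did not overlap for 5 of the 10, 1 higher (tbx2a) and 4 lower (tbx3a, tbx18, tbx20 and eomesa), beside 46.7% of all genes, 18.3% higher and 28.3% lower. The higher calls made up 22.7% of all calls, and 40.5% under median-ratio scaling, which moved the median of all genes to 0.094 from -0.13. For tbx20 the adjusted p of limma was 0.121 and 0.170 with the first or the second High-Fli1+ library left out, 0.0743 and 0.0449 for the Low-Fli1+ libraries and 0.150 and 0.151 for the Fli1- libraries, so the call stood in 1 of these 6 fits.

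**Figure D3:**
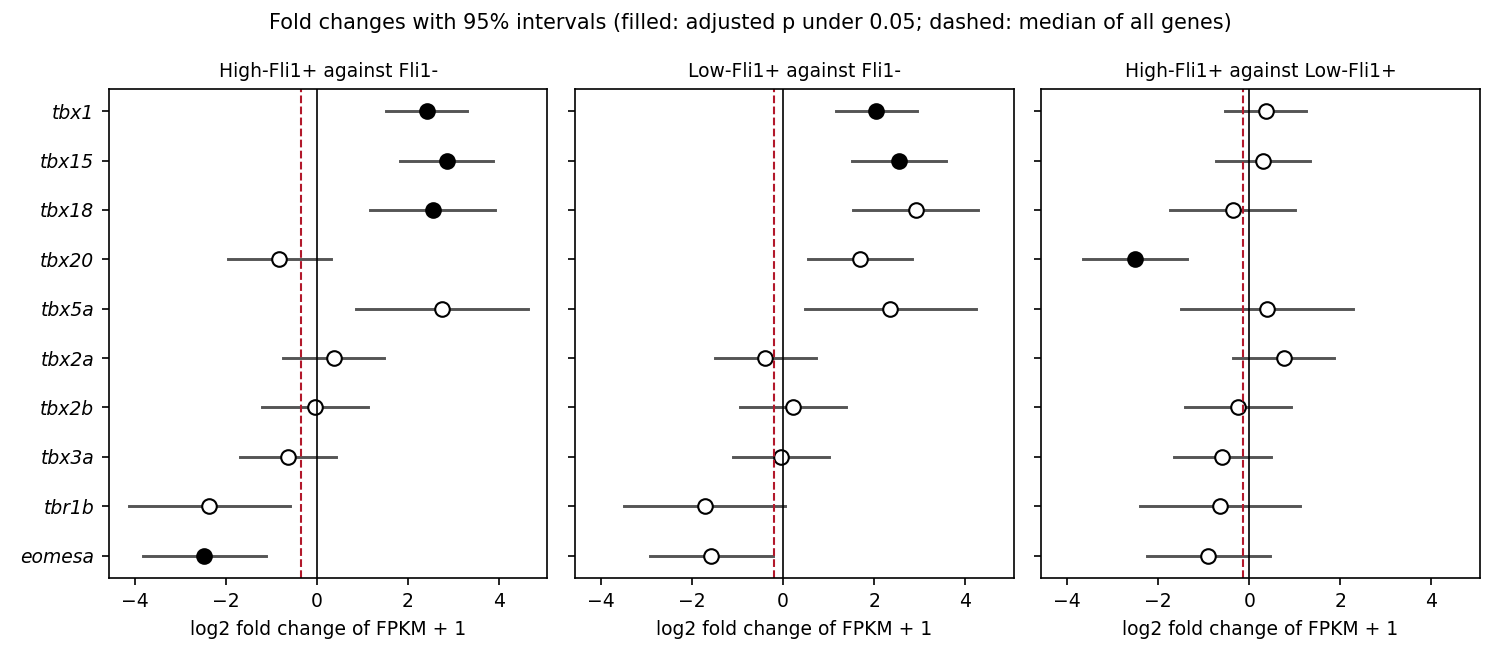
Log2 fold change of FPKM + 1 for each T-box gene (points) with its 95% interval (lines) in the 3 comparisons; filled points passed limma at an adjusted p under 0.05 and the dashed line is the median of all genes tested (-0.35, -0.21 and -0.13 from left to right). The 7 filled points are tbx1 and tbx15 in both comparisons against Fli1-, tbx18 and eomesa in High-Fli1+ against Fli1-, and tbx20 between the positive populations.

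The order of levels within a population also differed. In High-Fli1+ cells tbx5a led at 29.97 ± 0.0544 FPKM (mean ± SD, n = 2), followed by tbx1 at 22.3 ± 5.02 and tbx2b at 22.0 ± 1.399, whose ranges overlapped. Next came tbx15 (16.4 ± 1.65) and tbx2a (13.0 ± 3.20), which also overlapped, then tbx18 (7.67 ± 1.02) and tbx3a (6.14 ± 2.51), then tbx20, eomesa and tbr1b at under 2.5 FPKM in every library. In Low-Fli1+ cells the ranges of neighbours overlapped from tbx2b at the top (29.6 ± 19.3) down to tbx2a (7.37 ± 2.67), so the order of neighbours among those 8 genes was not resolved. Some genes further apart did not overlap, such as tbx1 and tbx20, which lay above tbx18, tbx3a and tbx2a. Below the 8 genes eomesa and tbr1b stood apart. In Fli1- cells tbx2b led at 22.8 ± 2.77 FPKM, apart from eomesa (10.6 ± 0.0560), tbx2a (9.98 ± 3.64) and tbx3a (9.81 ± 1.497). Tbx15 and tbx18 were the lowest of the 10 there. Among all genes above 0, tbx1 stood at percentiles 82.5 and 77.2 in High-Fli1+ libraries, against 36.9 and 34.7 in Fli1- libraries.

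The table holds 12 further entries of the family, of which 9 passed the filter. In High-Fli1+ against Fli1- limma called 0 of these higher and 2 lower, the same counts as at an unadjusted p under 0.05, beside 5.79% and 11.5% called over all genes. It called 0 in Low-Fli1+ against Fli1- (0 higher and 2 lower unadjusted) and 0 in High-Fli1+ against Low-Fli1+ (0 and 1 unadjusted). Over all genes, 3.23% were called in the former comparison and 5.37% in the latter. Tbx6l, a gene of presomitic mesoderm now named tbx16l, was lower, with 0 in both High-Fli1+ libraries, 0 and 1.92 FPKM in Low-Fli1+, against 13.1 and 8.89 in Fli1- (limma, adjusted p = 0.0200 in High-Fli1+ against Fli1-). Tbx4, the hindlimb and pelvic fin gene, was listed at 0 in all 4 positive libraries and stood at 2.38 and 4.14 FPKM in Fli1- (limma, adjusted p = 0.0296 in High-Fli1+ against Fli1- and 0.0680 in Low-Fli1+ against Fli1-). The most abundant was mgaa, whose mammalian relative pairs with Max, at 26.2 and 17.9 FPKM in High-Fli1+, 26.6 and 58.6 in Low-Fli1+, against 23.8 and 35.1 in Fli1- libraries, with no call. The brachyury gene, listed as ta, was at most 1.05 FPKM in any library.

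**Figure D4:**
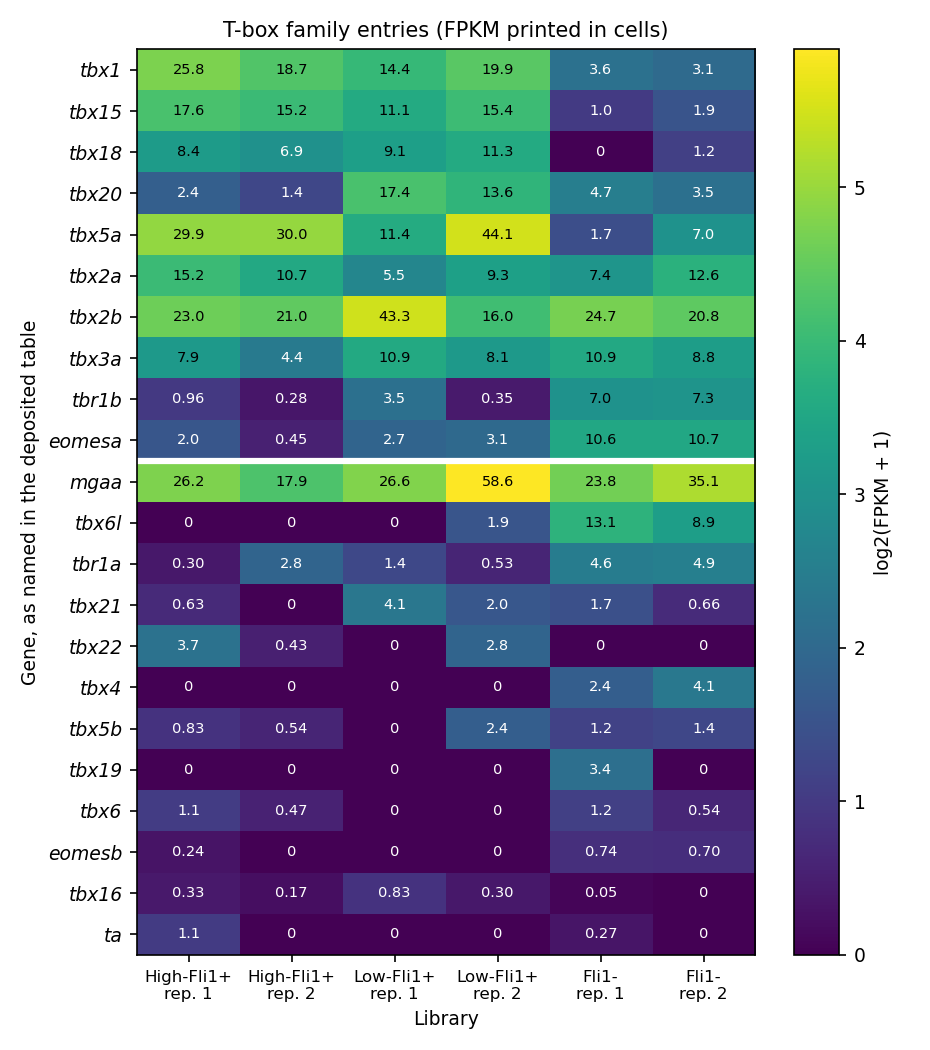
Levels of the 22 T-box entries of the table (rows; the 10 described here above the white line) in the 6 libraries (columns; High-Fli1+, Low-Fli1+, Fli1-), coloured by log2(FPKM + 1) with FPKM printed in each cell. Tbx6l and tbx4 are at 0 in both High-Fli1+ libraries and above 2 FPKM in both Fli1- libraries.

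Partners and regulators of T-box factors went both ways. Of 14 tested in High-Fli1+ against Fli1-, limma called 2 higher and 2 lower, with a median log2 fold change of 0.12. Over all genes tested, 5.79% were called higher and 11.5% lower there. Hand2, a bHLH factor of arches, fin buds and heart, was higher, at 42.8 and 44.5 FPKM in High-Fli1+ and 2.62 and 5.32 in Fli1- libraries. Ripply3, which in frog and mouse represses Tbx1 activity, stood at 4.37 and 3.66 FPKM in High-Fli1+ and was listed at 0 in all 4 other libraries (limma, adjusted p = 0.0181 against Fli1- and 0.0402 against Low-Fli1+). Isl1 and the GATA factor gata6 were lower, gata6 at 1.36 and 1.94 FPKM in High-Fli1+ and 13.2 and 13.4 in Fli1-. In Low-Fli1+ against Fli1-, hand2 was higher and gata6 lower, and in High-Fli1+ against Low-Fli1+, ripply3 was higher and isl1 lower, 1 each way of 14 both times. Over all genes, 2.14% were called higher and 1.1% lower in the former comparison, and 1.22% and 4.15% in the latter.

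Pharyngeal arch and pectoral fin genes, from the places where tbx1 and tbx5a act, gave calls in 1 direction only against Fli1-. Both lists hold hand2 and fgf10a. The fin genes prrx1a, prrx1b and hand2 are also among the arch mesenchyme markers, and hand2 among the partners, so shared calls are not separate results. Over all genes, limma called 5.79% higher and 11.5% lower in High-Fli1+ against Fli1-, and 2.14% and 1.1% in Low-Fli1+ against Fli1-. The shares were 1.22% and 4.15% in High-Fli1+ against Low-Fli1+. Of 14 pharyngeal arch genes, limma called 5 higher and 0 lower in High-Fli1+ against Fli1- (median 1.46), 3 and 0 in Low-Fli1+ against Fli1- (median 1.004), and 0 in High-Fli1+ against Low-Fli1+ (median 0.73, with 5 higher and 0 lower at an unadjusted p under 0.05). Those higher against Fli1- in High-Fli1+ include foxc1b and foxc1a, forkhead factors of arch and vessel precursors, and six1a, at 42.4 and 32.6 FPKM in High-Fli1+, 15.2 and 7.19 in Low-Fli1+, against 0.784 and 2.15 in Fli1- libraries. Of 11 pectoral fin genes tested, 6 were higher and 0 lower in High-Fli1+ against Fli1- (median 2.20), led by the mesenchyme factors prrx1b and prrx1a and by sall4, and 4 and 0 in Low-Fli1+ against Fli1- (median 1.62). In High-Fli1+ against Low-Fli1+, 0 were higher and 1 lower (median 0.70, with 2 higher and 1 lower at an unadjusted p under 0.05). The lower gene, prdm1a, is a zinc finger factor of fin bud and arches and stood at 6.09 and 5.83 FPKM in High-Fli1+, 19.4 and 33.8 in Low-Fli1+, against 14.7 and 17.4 in Fli1- libraries (limma, adjusted p = 0.0448 against Low-Fli1+ and 0.0647 against Fli1-). Fgf24, a fin bud signal downstream of tbx5a, gave no call. It stood at 2.21 and 1.89 FPKM in High-Fli1+, 0 and 2.53 in Low-Fli1+, against 2.4998 and 2.32 in Fli1- libraries. Fgf10a, held by both lists, also gave no call, at 12.3 and 8.86 FPKM in High-Fli1+ and 4.19 and 11.5 in Low-Fli1+. In Fli1- libraries fgf10a stood at 1.93 and 2.24 FPKM, below every positive library. Of 5 epicardial genes tested, 3 were higher and 0 lower in High-Fli1+ against Fli1-, tgm2b, aldh1a2 and bnc2, all of them also expressed outside the heart. The other 2 tested, the Wilms tumour factors wt1a and wt1b, had log2 fold changes of -0.91 and -0.66 there, with High-Fli1+ below Fli1- without overlap (limma, adjusted p = 0.449 and 0.592). Limma called 0 of the 5 in Low-Fli1+ against Fli1- (1 higher and 0 lower at an unadjusted p under 0.05) and 0 in High-Fli1+ against Low-Fli1+ (2 and 0). The epicardial factor tcf21 stood at 0 and 1.13 FPKM in High-Fli1+, 0 and 0 in Low-Fli1+, against 1.05 and 0.605 in Fli1- libraries.

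Forebrain excitatory neuron genes were mostly lower in High-Fli1+ cells. Of 16, limma called 1 higher and 10 lower against Fli1- (median -2.80), with bhlhe22, lhx2b, slc17a6a and neurod6b the largest falls. Against Low-Fli1+, 1 was higher and 6 lower (median -1.55). Low-Fli1+ against Fli1- gave 0 calls by limma, with 0 higher and 3 lower at an unadjusted p under 0.05 and a median of -0.70. The bHLH repressor bhlhe22 stood at 0.0449 and 0 FPKM in High-Fli1+, 27.7 and 10.6 in Low-Fli1+, against 33.7 and 25.6 in Fli1- libraries. In Low-Fli1+ against Fli1- its log2 fold change was -0.74, beside -2.09 for foxg1a, -1.92 for emx2 and -1.58 for eomesa, none of them called. Of 9 dorsal retina genes tested, 1 was higher (gdf6a, a BMP-family signal) and 2 lower (rx1 among them) in High-Fli1+ against Fli1-, and limma called 0 in Low-Fli1+ against Fli1- (2 higher and 0 lower at an unadjusted p under 0.05) and in High-Fli1+ against Low-Fli1+ (1 and 1). Beside both lists, 5.79% of all genes were called higher and 11.5% lower in High-Fli1+ against Fli1-, and 1.22% and 4.15% against Low-Fli1+. In Low-Fli1+ against Fli1- the shares were 2.14% and 1.1%.

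The genes most like each member over the 6 libraries, by Pearson's r of log2(FPKM + 1) among 10254 candidates, are given as description only, since the points fall into 3 populations. For tbx1 they were acvrl1, an endothelial BMP receptor, mpl, the thrombopoietin receptor, and rin3 (r from 0.995 to 0.998). For tbx15 they were cers2b, the basement membrane gene nid1b and the fibrillar collagen col5a1 (0.998 to 0.999), and for tbx18 the collagen col1a1b, acap1 and CHST13 (0.994 to 0.999). Those of tbx5a were COMP, a cartilage matrix gene, rftn2 and ccdc187 (0.991 to 0.997), and COMP shared its spread in Low-Fli1+, with 19.3 and 51.3 FPKM there. Those of tbx20 were ddx24, tra2b and itsn1 (0.992 to 0.998), which encode an RNA helicase, a splicing factor and an endocytic scaffold. Those of eomesa were myo5aa, meis2a and atp6v0a2a (0.994 to 0.996), and those of tbr1b sox19a, mphosph8 and zfpm2a (0.991 to 0.997). The nearest to tbx2a, tbx2b and tbx3a were raf1a, ngdn and ccdc51, with r of 0.990, 0.993 and 0.995.

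**Figure D5:**
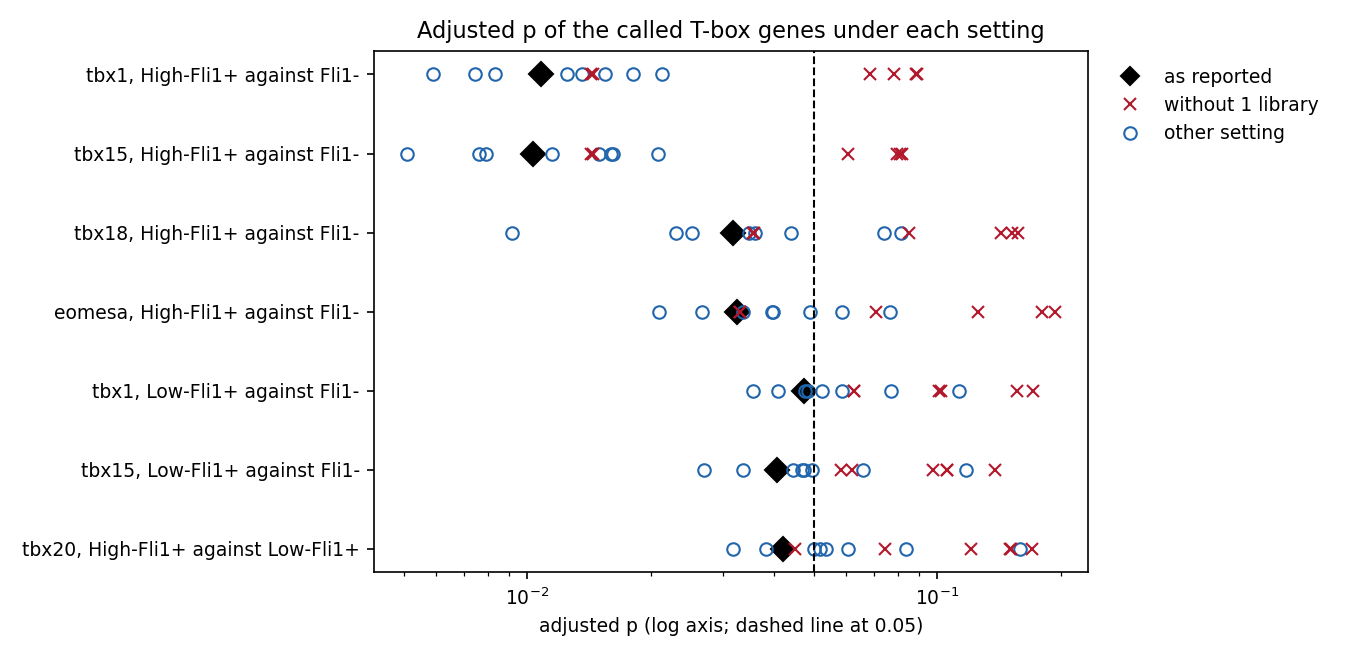
Adjusted p of limma (log axis) for the 7 calls among the T-box genes, as reported (diamonds), without 1 library (crosses) and under the other settings (circles), with a dashed line at 0.05. Crosses of tbx1 and tbx15 in High-Fli1+ against Fli1- reach 0.0893 and 0.0821, and each call has settings to the right of the line.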

How the data were processed

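Poly-A enriched RNA (100 ng of total RNA per library) was sequenced from 2 libraries of each population, per the labels' protocols. The authors deposited FPKM values per gene name and library, per the file headers; the aligner, build and annotation are not given in the sources used here, and FPKM holds no depth. Of 29144 entries, 18 named by a calendar date were left out. Genes with a mean of at least 0.5 FPKM over the 6 libraries were tested (19237; 9889 removed) on log2(FPKM + 1), which understates changes of low genes. A limma model (version 3.58.1, R 4.3.3) took all libraries with population as the factor and a variance trend (3 residual and 2.89 prior degrees of freedom), and a gene was called where its p, adjusted by Benjamini-Hochberg across the 19237 genes, was under 0.05. With 2 libraries against 2, an exact permutation test cannot go below 0.333. The count over all genes at an unadjusted p under 0.05 is given for High-Fli1+ against Fli1- only. In the other comparisons, counts at that threshold have no such background here. The members, gene lists and marker lists were chosen with earlier results of these data known. All 10 members are named, with up to 4 called genes per list with the largest fold changes. For each member 3 genes of nearest pattern were taken among named genes of at least 5 FPKM. Fgf24, fgf10a, tcf21, mgaa, ta, nppa, vmhc, tnnt2a, cspg4, tagln, wt1a, wt1b, dlx2a, dlx5a, barx1, foxg1a and emx2 were added after their values were seen. List names were matched through RefSeq gene names (GRCz12tu). The alternatives were pseudocounts of 0.1 and 5, no filter or a mean of at least 2 FPKM, quantile and median-ratio scaling, the populations compared alone, the replicate number as a block, and each library left out. No sequences are shown, and some called genes of the lists are not reported here by name.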

Additional observations from a re-analysis of the deposited data

How the results depend on the processing

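Of 420 values of the 10 genes (30 values under 14 alternatives), 348 kept direction and side of the threshold, 49 lost a call, 11 gained one and 12 changed direction. In High-Fli1+ against Fli1- the 4 calls became 2 with a pseudocount of 0.1 or no filter (tbx1 and tbx15 in both), and between 0 and 6 with a library left out. In Low-Fli1+ against Fli1- the 2 calls became 1 with a pseudocount of 5 or no filter, 0 with the populations compared alone, and 0 with any 1 library left out. In High-Fli1+ against Low-Fli1+ the call of tbx20 was lost (0 calls) with a pseudocount of 0.1, no filter, quantile normalization, median-ratio scaling or the populations compared alone, and the count was 0 to 1 with a library left out. Counts over all genes moved by over 1.5 times too: in High-Fli1+ against Fli1- 3316 became 201 to 956 without a library of either population, in Low-Fli1+ against Fli1- 622 became 0 to 797 and 335 with the replicate block, and in High-Fli1+ against Low-Fli1+ 1033 became 183 without a filter and 0 to 2262 with a library left out. With the populations compared alone the last 2 comparisons gave 0 calls over all genes.

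With the replicate number as a block, 5, 0 and 0 of the 10 genes were called in the 3 comparisons, against 4, 2 and 1, and the gene gained in High-Fli1+ against Fli1- was tbx5a (adjusted p = 0.0283). The labels do not say that a number pairs libraries, and the differences between replicates 1 and 2 correlated across genes by 0.0962 between Low-Fli1+ and Fli1-, 0.0806 between High-Fli1+ and Fli1- and 0.121 between High-Fli1+ and Low-Fli1+.

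Directions changed only where no call was made. In High-Fli1+ against Fli1-, tbx2b (-0.042) was 0.20 under quantile normalization, 0.26 under median-ratio scaling and -0.16 to 0.077 with a library left out. In Low-Fli1+ against Fli1-, tbx2b (0.21) ran from -0.48 to 0.90 and tbx3a (-0.045) from -0.24 to 0.15 with a library left out. In High-Fli1+ against Low-Fli1+, tbx2b (-0.25) was 0.092 under median-ratio scaling and -0.95 to 0.44 with a library left out, tbx5a (0.39) ran from -0.54 to 1.32, tbr1b (-0.64) from -1.52 to 0.23, and tbx18 (-0.36) was 0.035 under quantile normalization. The cause of these changes was not tested. A library left out leaves its population with 1, which is assumed to vary like the others. Depth is unknown, so values under 1 FPKM, and entries at 0, can be given no counting interval.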

Other observations

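Some T-box genes are neighbours among protein-coding genes of the RefSeq GRCz12tu assembly, and neighbours differed in their values. Tbx5a and tbx3a lie next to each other. In High-Fli1+ against Fli1- tbx5a had a log2 fold change of 2.75 (95% interval from 0.86 to 4.63) and tbx3a one of -0.64 (interval from -1.70 to 0.42), and the difference between them was not tested. Tbx4 lies next to tbx2b, and it was listed at 0 in all 4 positive libraries, where tbx2b stood at 16.0 FPKM or more.

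Paralogs were unequal. Tbx5a exceeded tbx5b 35.9- and 55.7-fold in High-Fli1+ libraries and 18.3-fold in Low-Fli1+ replicate 2, against 1.35- and 5.08-fold in Fli1- libraries. Tbx5b itself was low throughout, at 0.834 and 0.539 FPKM in High-Fli1+, 0 and 2.41 in Low-Fli1+, against 1.23 and 1.37 in Fli1- libraries. The size of these ratios therefore rests on low values of tbx5b. Tbx2b exceeded tbx2a in all 6 libraries, by 1.51- and 1.96-fold in High-Fli1+, 7.90- and 1.73-fold in Low-Fli1+ and 3.34- and 1.66-fold in Fli1-. Eomesa exceeded eomesb 14.2- and 15.2-fold in Fli1- libraries, where eomesb stood at 0.743 and 0.701 FPKM. Tbr1b exceeded tbr1a 3.19-fold in High-Fli1+ replicate 1, where both were under 1 FPKM, 2.51-fold in Low-Fli1+ replicate 1, and 1.54- and 1.499-fold in Fli1- libraries. It was below tbr1a in High-Fli1+ replicate 2, at 0.276 beside 2.76 FPKM, and in Low-Fli1+ replicate 2, at 0.346 beside 0.535 FPKM.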
